A study of Mus musculus with 20 samples.

Results

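Genes that act in triglyceride breakdown were followed through mouse liver and liver tumours. They were the lipases Pnpla2, Pnpla3, Lipe, Mgll and the secreted Lipc, and Abhd5 and G0s2, which switch Pnpla2 on and off. The rule lists the genes by name, for the action of their products, and uses no measured value. The genes were, however, chosen with earlier results of these data known. They are 7 of the 55359 gene identifiers in the count files, and all 7 of them passed the filter on low counts that left 14428 genes for testing. The data were RNA-seq counts from 20 pieces of liver, in 5 groups of 4 libraries.

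All mice were male, wild type, of the strain the labels spell C56BL/6, and 35 weeks old. Per the protocol, which makes no exception for a diet, each had received 50 µL of 0.5% DMBA, a chemical carcinogen, in acetone on the back skin at postnatal day 4 to 5. One group ate a normal diet with 12 kcal% fat and was not exercised. The other 4 groups were obese mice over 45 g on a high-fat diet with 60 kcal% fat, divided at 20 weeks into an exercised and a non-exercised arm, with a non-tumour and a tumour piece of liver in each arm. Training on a treadmill began at 10 m/min and reached 18 m/min over 5 weeks, and 20 min of running on 5 days a week followed for 10 weeks. The exercised mice were killed within 2 h of a run, so the last run and the weeks of training cannot be told apart. The normal diet had neither a tumour group nor an exercised one. Titles number the mice 1 to 4 in each group, and where nothing else separates the animals the p-values measure only the spread between these samples.

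Triglyceride in a lipid droplet is taken apart one fatty acid at a time. Pnpla2 (adipose triglyceride lipase) makes the first cut, Lipe (hormone-sensitive lipase) cuts mainly the diglyceride, and Mgll (monoglyceride lipase) frees the last fatty acid and glycerol. Abhd5 (also called CGI-58) is a droplet protein without lipase action of its own that activates Pnpla2, and G0s2 is a small protein that binds Pnpla2 and inhibits it. Pnpla3 is a droplet-bound relative of Pnpla2 whose transcript is known to rise with lipogenic feeding. Lipc (hepatic lipase) works outside the cell: hepatocytes secrete it and it acts on lipoproteins in the liver sinusoids. In bulk tissue, fewer cells of a type and less RNA per cell cannot be told apart.

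Coordinates of the count files are on GRCm39. Pnpla2 (ENSMUSG00000025509.16) lies at chr7:141035111-141040656 on the plus strand and Lipe (ENSMUSG00000003123.16) at chr7:25078952-25098135 on the minus strand. Pnpla3 (ENSMUSG00000041653.6) lies at chr15:84052038-84071437, plus strand, and Mgll (ENSMUSG00000033174.18) at chr6:88701394-88805342, plus strand. Abhd5 (ENSMUSG00000032540.17) lies at chr9:122180673-122210589, plus strand, and Lipc (ENSMUSG00000032207.11) at chr9:70705410-70859508, minus strand. G0s2 (ENSMUSG00000009633.4) lies at chr1:192954469-192955525, minus strand. Pnpla3 shares 105 exonic bases with the gene model Gm49513 on the same strand, and reads there may be missing from its count. Antisense models overlap exons of Lipe (918 bases), Abhd5 (950 bases) and Mgll (167 bases), and the strand-specific counting kept these apart.

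Since 4 of the genes changed in the tumours of both arms, 2 up and 2 down, their promoters are shown. The sequences are those of RefSeq on GRCm38.p6, another build than that of the counts. Each is the 250 bases before a transcription start, 5′ to 3′ on the gene's strand, with capitals for a match to a motif that was searched. Pnpla3 (chr15:84167566-84167815, plus strand) and Abhd5 (chr9:122351366-122351615, plus strand) were higher in tumours. Mgll (chr6:88724162-88724411, plus strand) and Lipc (chr9:70952222-70952471, minus strand) were lower.
Pnpla3: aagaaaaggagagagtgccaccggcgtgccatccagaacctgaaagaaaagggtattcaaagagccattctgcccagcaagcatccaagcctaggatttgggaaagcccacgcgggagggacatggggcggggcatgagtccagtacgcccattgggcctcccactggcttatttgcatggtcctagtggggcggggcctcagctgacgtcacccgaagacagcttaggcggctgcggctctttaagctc
Abhd5: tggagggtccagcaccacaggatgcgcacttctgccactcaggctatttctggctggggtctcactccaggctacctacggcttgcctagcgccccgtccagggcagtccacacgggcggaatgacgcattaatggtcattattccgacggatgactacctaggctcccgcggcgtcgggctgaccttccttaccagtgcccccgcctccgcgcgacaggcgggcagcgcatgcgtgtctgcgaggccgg
Mgll: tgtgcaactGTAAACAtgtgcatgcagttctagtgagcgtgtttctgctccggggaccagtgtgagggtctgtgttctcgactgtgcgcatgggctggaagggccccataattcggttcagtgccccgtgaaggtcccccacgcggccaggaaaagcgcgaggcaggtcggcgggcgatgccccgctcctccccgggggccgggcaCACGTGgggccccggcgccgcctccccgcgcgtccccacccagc
Lipc: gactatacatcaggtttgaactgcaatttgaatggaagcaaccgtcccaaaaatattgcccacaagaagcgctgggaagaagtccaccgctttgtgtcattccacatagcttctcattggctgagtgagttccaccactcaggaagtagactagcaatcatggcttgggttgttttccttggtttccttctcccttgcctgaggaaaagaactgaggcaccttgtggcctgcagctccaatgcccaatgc

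Windows of 300 bases, from 250 before to 50 after a start, were found in the RefSeq table for 7 of 7 genes, 10 windows in all, and were searched on both strands for 4 motifs. These were the E-box CACGTG, found in 7.15% of all 32851 windows of that length, and the FOXO motif GTAAACA, found in 3.65%. The other motifs were the sterol element TCACNCCAC, in 1.24%, and the DR1 element, a direct repeat spaced by 1 base, in 0.0396%. The Mgll window shown holds GTAAACA at bases -241 to -235 and CACGTG at -44 to -39 before the start. Lipe holds CACGTG at -155 to -150 of one window and the FOXO motif, on the opposite strand, at -119 to -113 of its other window. The windows of the other 5 genes hold none of the 4 motifs. The pairs that moved together in the tumours therefore share none of these motifs in these windows. A match is a description of the letters only.

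Total counts ran from 16471378 to 20271948 per library, so depth was similar throughout. The liver tumour markers Afp, Gpc3, Golm1, Igdcc4 and Prom1 summed to between 4.54 and 24.1 CPM (the count of a gene relative to the library's total, with totals scaled by TMM) in the 12 libraries of the non-tumour groups. They summed to 138 to 855 CPM in the tumours of non-exercised mice and to 198 to 1598 CPM in those of exercised mice, so the labels of tumour and non-tumour pieces match their markers. Hepatocyte markers were high in all groups, with Alb alone at 4.06% to 7.36% of counts in non-tumour pieces and 9.05% to 15.9% in tumours. Some fat cell markers were almost absent: over all 20 libraries Adipoq had 7 counts, Plin1 5, Lep 1 and Retn 9. Pnlip, the pancreatic lipase, had 0. Cfd and Cidea, also listed as fat cell markers, were not absent, with 1855 and 9475 counts. They reached their highest levels, 20.3 and 68.7 CPM, in non-exercised non-tumour liver on the high-fat diet. The whole fat cell list of 7 genes, of which 3 passed the filter, summed to 1151 to 3943 CPM in non-tumour pieces and 142 to 1600.3 CPM in tumours. Nearly all of this was Pck1, which hepatocytes also express (1094 to 3932 CPM and 139.9 to 1587 CPM).

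Levels of different genes were compared per kilobase of exon (RPKM). In liver of mice on the normal diet, Lipc was the highest of the 7 at 85.6 ± 10.8 RPKM (SD, n = 4), followed by Mgll at 52.8 ± 17.8. Pnpla2 at 25.8 ± 4.24 and G0s2 at 25.6 ± 12.8 RPKM lay together, and Abhd5 stood at 8.19 ± 0.562. Lipe was low at 2.5 ± 0.18 RPKM and Pnpla3 close to the limit of detection at 0.0951 ± 0.0632. On the high-fat diet, in non-tumour liver of non-exercised mice, G0s2 led at 150.02 ± 77.3 RPKM, above Mgll at 75.2 ± 11.2 and Lipc at 53.9 ± 12.1. In their tumours Abhd5 (16.4 ± 3.07 RPKM), Pnpla2 (13.7 ± 1.70) and Pnpla3 (12.4 ± 4.04) came to lie close together. Lipe was the lowest gene there, at 1.70 ± 0.250 RPKM.

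**Figure D1:**
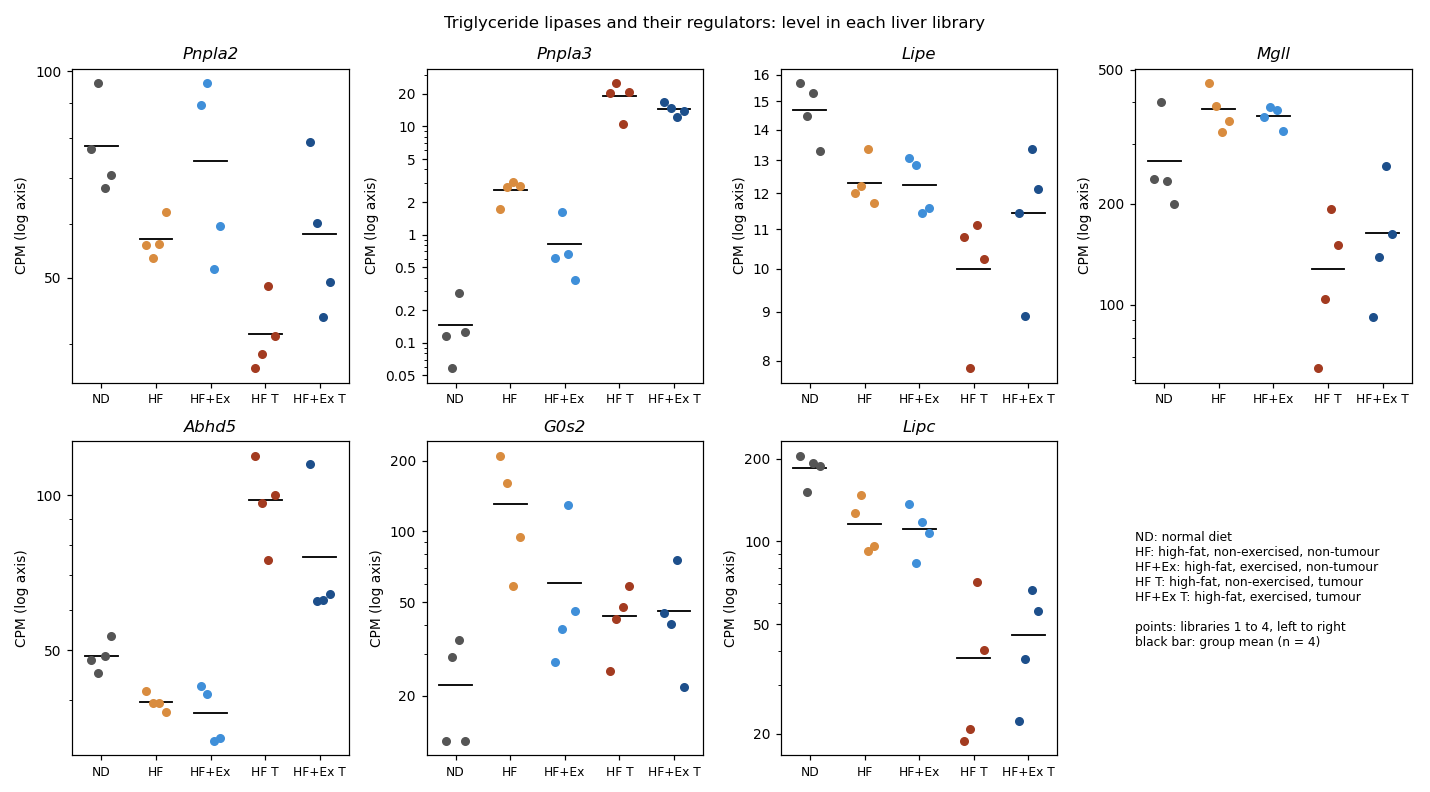
Level of each gene in CPM (log axis) in every library, by group; points are libraries 1 to 4 from left to right and black bars are group means (n = 4). Pnpla3 and Abhd5 stand higher in both tumour groups than in any non-tumour library, Mgll and Lipc lower than in the non-tumour libraries of the same arm, and G0s2 is highest in the non-tumour liver of non-exercised mice on the high-fat diet.

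Pnpla3 covered the widest range of the 7 genes. On the normal diet its level was 0.117, 0.0582, 0.287 and 0.127 CPM in libraries 1 to 4, or 1 to 5 counts each. Non-tumour liver on the high-fat diet had 1.74, 2.73, 3.08 and 2.81 CPM without exercise and 0.608, 1.62, 0.655 and 0.379 CPM with it. Tumours had 20.5, 25.3, 10.5 and 20.6 CPM without exercise and 17, 14.7, 12.3 and 14 CPM with it. From low to high the order was normal diet, exercised non-tumour, non-exercised non-tumour, exercised tumour and non-exercised tumour. Only the 2 tumour groups overlapped among neighbours in that order.

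Pnpla2 varied little by comparison. Its level was 77.0, 96.2, 67.7 and 70.7 CPM on the normal diet, and 55.8, 53.5, 55.9 and 62.3 CPM in non-tumour liver of non-exercised mice on the high-fat diet. Exercised non-tumour liver had 89.3, 96.0, 51.4 and 59.4 CPM, libraries 1 and 2 being near the normal diet and libraries 3 and 4 near the non-exercised group. Tumours of non-exercised mice were lowest, at 36.9, 38.7, 48.6 and 41.1 CPM, with no overlap with their non-tumour liver. Tumours of exercised mice had 78.9, 60.1, 43.8 and 49.2 CPM.

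Lipe and Mgll act after Pnpla2. Lipe stayed within 7.85 to 15.7 CPM over the 20 libraries, with means of 14.7 ± 1.06 CPM (SD, n = 4) on the normal diet and 9.99 ± 1.47 CPM in tumours of non-exercised mice at the extremes. Every pair of neighbouring groups in its order overlapped. Mgll had 237, 401, 234 and 199.8 CPM on the normal diet, 457, 390.5, 327 and 352 CPM in non-exercised and 362, 388, 379.8 and 328 CPM in exercised non-tumour liver on the high-fat diet. In tumours it had 64.8, 104, 193 and 151 CPM without exercise and 91.9, 139, 259.7 and 163 CPM with it. All 8 tumour libraries lay below all 8 non-tumour libraries of the high-fat diet.

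Of the regulators of Pnpla2, the activator Abhd5 had 47.8, 45.2, 48.8 and 53.2 CPM on the normal diet. On the high-fat diet it had 41.7, 39.6, 39.6 and 38.0 CPM in non-exercised and 42.6, 41.2, 33.3 and 33.8 CPM in exercised non-tumour liver. In tumours it had 119, 96.8, 74.8 and 100.2 CPM without exercise and 115, 62.2, 62.6 and 64.2 CPM with it, above every non-tumour library. The inhibitor G0s2 varied widely within groups. It had 12.8, 29.2, 34.4 and 12.9 CPM on the normal diet, and 209.7, 159.8, 58.6 and 94.6 CPM in non-tumour liver of non-exercised mice on the high-fat diet, all 4 above the normal diet. Exercised non-tumour liver had 27.8, 38.5, 129 and 46.1 CPM, with library 3 alone within the range of the non-exercised group. Tumours had 25.4, 42.5, 47.7 and 58.6 CPM without exercise and 44.9, 40.4, 75.5 and 21.9 CPM with it.

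Lipc, the secreted lipase, had 205, 151, 193 and 188 CPM on the normal diet. On the high-fat diet it had 127, 147, 92.7 and 96.3 CPM in non-exercised and 136, 83.3, 118 and 107 CPM in exercised non-tumour liver. In tumours it had 18.8, 20.8, 71.4 and 40.4 CPM without exercise and 22.3, 37.5, 66.8 and 55.9 CPM with it. Levels thus fell into 3 separate ranges: normal diet, high-fat non-tumour liver and tumours.

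In non-tumour liver of non-exercised mice the 2 diets were set against each other. The groups differed in more than the diet. Mice on the high-fat diet were obese, with a lower limit on body weight, and their arm also gave tumour pieces. The normal diet had no stated weight limit and no tumour group. Diet, obesity and the presence of tumours therefore cannot be told apart wherever the diet comparison is given. On the high-fat diet Pnpla3 and the inhibitor G0s2 rose, and none of the other 5 genes passed the test. Pnpla3 was higher by 4.07 ± 0.49 on the log2 scale (SE, adjusted p = 5.05e-05 by edgeR). Because the normal diet had only 10 counts of Pnpla3 against 202, its fold rests on few reads. The ratio of pooled CPM was 17.6, with a 95% counting interval of 9.39 to 37.3. That interval covers the sampling of reads only and leaves out the spread between mice. G0s2 was higher by 2.55 ± 0.54 (adjusted p = 0.00296), which is 5.84-fold. Pnpla2 (-0.45 ± 0.19, adjusted p = 0.0892), Lipc (-0.67 ± 0.36, adjusted p = 0.18) and Abhd5 (-0.30 ± 0.17, adjusted p = 0.212) had lower values without passing, although the 4 libraries of each diet did not overlap. Lipe differed by -0.25 ± 0.12 (adjusted p = 0.122) and Mgll by 0.51 ± 0.31 (adjusted p = 0.229).

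Against these 2 of 7 genes called, both higher, the diet comparison called 25.9% of all genes tested, 14% higher and 11.9% lower. Higher genes made up 54.1% of the calls, or 68.8% with upper-quartile scaling. Groups did not overlap for 5 of the 7 genes, 2 higher and 3 lower, against 33.1% of all genes (16.8% higher, 16.3% lower). The median log2 fold change was -0.25 over the 7 genes and 0.01 over all genes tested. When only these 2 groups were fitted, Pnpla2 (-0.44, adjusted p = 0.0110), Abhd5 (-0.28, adjusted p = 0.0127) and Lipc (-0.65, adjusted p = 0.00909) passed as well, which made 5 of 7. Macrophage markers moved with the diet, at 227 to 306 summed CPM on the normal and 402 to 561 CPM on the high-fat diet, with 8 of 11 called higher, none at 0 in either group. Stellate cell and fibroblast markers summed to 94.4 to 143 CPM and 199.5 to 405 CPM, with 4 of 7 called higher. Of the 8 hepatocyte markers 4 were called lower: Serpina1e (-5.33), Cps1 (-1.31), Tat (-1.11) and Hnf4a (-0.65). Their part in the values of the 7 genes was not tested.

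**Figure D2:**
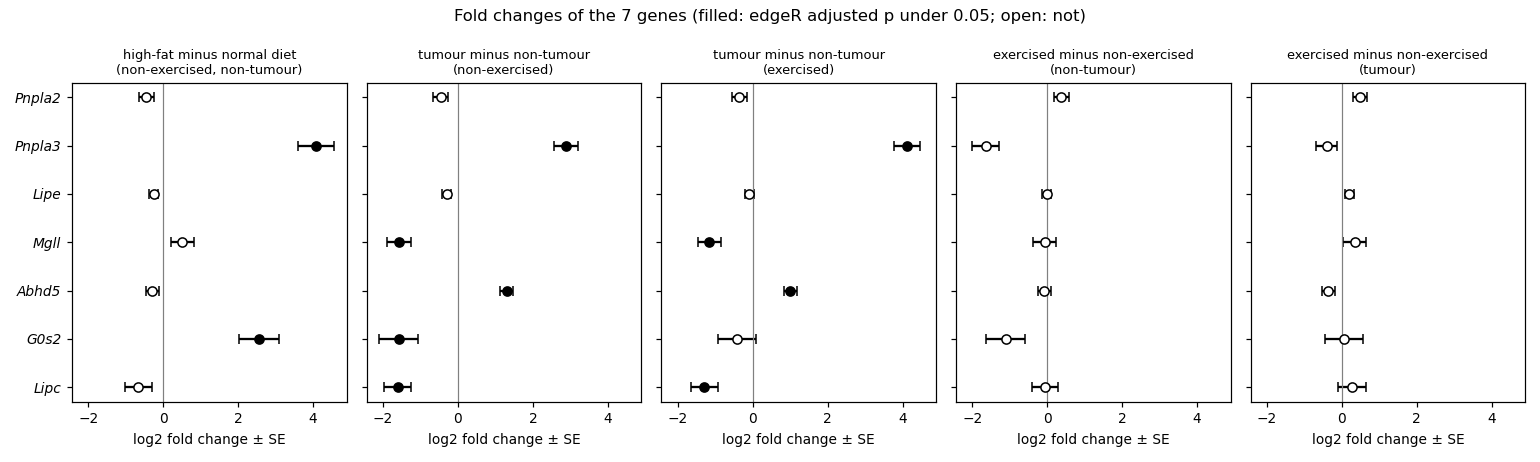
Log2 fold change of each gene in the 5 comparisons, with bars for ± 1 SE from the edgeR fit over 20 libraries; filled points passed at an adjusted p under 0.05 and open points did not. Pnpla3 and G0s2 stand to the right for the diet, Pnpla3 and Abhd5 to the right and Mgll and Lipc to the left for both tumour comparisons, and no point is filled for exercise.

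Tumour pieces were then compared with non-tumour pieces. Without exercise, Pnpla3 and the activator Abhd5 rose, and Mgll, Lipc and the inhibitor G0s2 fell. Pnpla3 was higher by 2.88 ± 0.31 on the log2 scale (SE, adjusted p = 3.73e-05 by edgeR), or 7.39-fold, and Abhd5 by 1.30 ± 0.17 (adjusted p = 8.85e-05), or 2.46-fold. Mgll fell by 1.57 ± 0.31 (adjusted p = 0.00110), to 0.336 of the non-tumour level, and Lipc fell by 1.61 ± 0.37 (adjusted p = 0.00308), to 0.327 of it. G0s2 fell by 1.58 ± 0.52 (adjusted p = 0.0237), but the highest tumour library and the lowest non-tumour library were both at 58.6 CPM. Its call was lost without non-tumour library 1 (adjusted p = 0.0870) or 2 (0.0592), without tumour library 1 (0.0838) or 2 (0.0577), and when low counts were left unfiltered (0.0704).

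Pnpla2 and Lipe had lower values in these tumours without passing: -0.46 ± 0.19 (adjusted p = 0.0713) and -0.30 ± 0.12 (adjusted p = 0.0581). Neither gene's tumour libraries overlapped its non-tumour libraries. Same-numbered pieces within an arm were read as pieces of 1 mouse, and with the mouse as a block Pnpla2 passed at -0.47 (adjusted p = 0.00930). Without tumour library 3 both passed (Pnpla2 adjusted p = 0.0439, Lipe adjusted p = 0.0379), which made 7 of 7 genes. As fitted over all libraries, 5 of 7 genes were called, 2 higher and 3 lower, against 35.8% of all genes tested (18% higher, 17.8% lower). Groups did not overlap for 6 of 7, 2 higher and 4 lower, against 34.8% of all genes (16.5% higher, 18.2% lower). The median log2 fold change was -0.46 over the 7 genes and -0.01 over all.

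In exercised mice, Pnpla3 and Abhd5 again rose in tumours, and Mgll and Lipc fell. Pnpla3 was higher by 4.12 ± 0.35 on the log2 scale (SE, adjusted p = 9.24e-06 by edgeR), or 17.4-fold, and ranked 1 of 14428 genes by p in this comparison. Its non-tumour libraries held 7 to 33 counts. Abhd5 was higher by 1.01 ± 0.17 (adjusted p = 0.000463), or 2.01-fold, and by 0.74 without tumour library 1, in which it stood highest. Mgll fell by 1.16 ± 0.31 (adjusted p = 0.00851) and Lipc by 1.28 ± 0.37 (adjusted p = 0.0127). With the mouse as a block Lipc differed by -1.36 and no longer passed (adjusted p = 0.0544), while Pnpla2 passed at -0.34 (adjusted p = 0.0304) where the fit without the block gave -0.35 ± 0.19 (adjusted p = 0.165). Pnpla2 also passed without non-tumour library 3 (adjusted p = 0.0438) or tumour library 1 (0.0441).

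Lipe (-0.09 ± 0.12, adjusted p = 0.577) and G0s2 (-0.40 ± 0.51, adjusted p = 0.572) did not pass in the exercised arm. The G0s2 value rested on non-tumour library 3, the one at 129 CPM: without it the difference was 0.27. Thus 4 of 7 genes were called, 2 higher and 2 lower, against 34.6% of all genes tested (18.6% higher, 16% lower). Groups did not overlap for the same 4 genes, against 28.6% of all genes (14.6% higher, 13.9% lower). The median log2 fold change was -0.35 over the 7 genes and 0.01 over all.

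Within the 8 same-numbered pairs of pieces, Pnpla3 and Abhd5 were higher in the tumour in 8 of 8 and Pnpla2, Mgll and Lipc lower in 8 of 8. The log2 difference of Pnpla3 ran from 1.73 to 3.48 without exercise and from 3.10 to 4.85 with it. Abhd5 differed by 0.91 to 1.51 and by 0.60 to 1.43. Pnpla2 differed by -0.60 to -0.20 without exercise and by -0.67 to -0.18 with it. Mgll ran from -2.82 to -0.76 and from -1.98 to -0.55, with pair 1 the largest and pair 3 the smallest decrease in each arm. G0s2 was lower in 4 of 4 tumours without exercise (-3.04 to -0.30) and in 2 of 4 with it, and Lipe in 4 of 4 and 2 of 4. For Pnpla3, Abhd5, Mgll and Lipc the groups of each arm did not overlap, so any pairing within an arm gives 8 of 8. The 4 of 4 of Pnpla2 and Lipe without exercise follows in the same way. These counts therefore add nothing to the non-overlap of the groups.

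**Figure D3:**
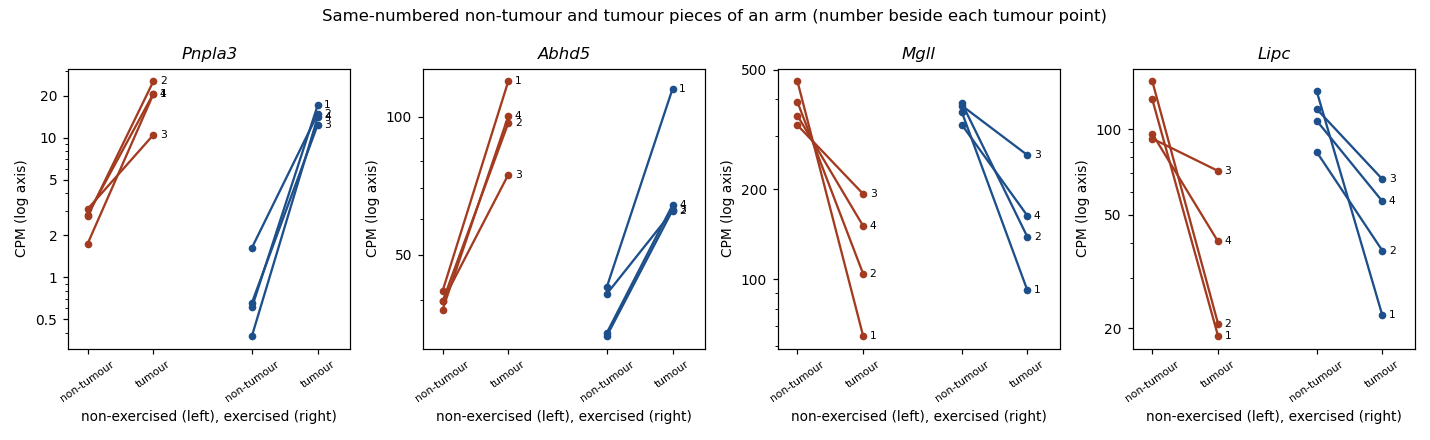
Level in CPM (log axis) of Pnpla3, Abhd5, Mgll and Lipc in the non-tumour and the tumour piece of each same-numbered pair, joined by a line, with the 4 non-exercised pairs on the left (red) and the 4 exercised pairs on the right (blue) and the pair's number beside its tumour point. All 8 lines rise for Pnpla3 and Abhd5 and all 8 fall for Mgll and Lipc, with the lowest Mgll and Lipc in tumour 1 of each arm. The groups of each arm do not overlap for these genes, so the direction of the lines does not depend on the pairing.

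The sum of tumour markers differed between tumour libraries, and Mgll, Lipc and Abhd5 were compared at its ends. In both arms library 1 had the highest sum of tumour markers (855 CPM without exercise, 1598 CPM with it), the lowest Mgll and Lipc and the highest Abhd5. Library 3 had the lowest sum (138 and 198 CPM) and the highest Mgll and Lipc in both arms. Abhd5 was lowest in library 3 without exercise but not with it (62.6 CPM, against 62.2 CPM at the lowest). Single markers did not all follow the sum. Without exercise the highest Afp (297 CPM) was not in library 1. With exercise the lowest Afp (33.3 CPM) and the lowest Gpc3 (81.0 CPM) were not in library 3. Bile duct markers (Krt19, Krt7, Epcam, Sox9 and Spp1) summed to 371 to 1468 CPM in tumours without exercise and 103 to 1449.5 CPM in those with it, against 26.2 to 179 CPM elsewhere, and none of the 5 was at 0 in any group. Nearly all of that sum was Spp1 (358 to 1445 CPM and 92.4 to 1432 CPM). Spp1 and Sox9 were called higher in both arms, whereas the keratin Krt19 was called lower without exercise (-1.12, adjusted p = 0.0332) and Krt7 and Epcam were not called in either arm.

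Other cell markers also moved. Of the 8 hepatocyte markers Alb and Apoa1 were called higher in tumours of both arms. Cps1, a urea cycle enzyme, was called lower in both (-0.89 and -0.90), and Tat, a tyrosine-degrading enzyme, was called lower without exercise (-0.93). Among the 11 macrophage markers 3 were called lower in each arm, the Kupffer cell genes Clec4f (-1.32 without and -1.42 with exercise), Vsig4 (-1.05 and -1.04) and Timd4 (-2.16 and -2.05). The list summed to 168 to 635 CPM and 194 to 416 CPM in tumours, against 402 to 561 CPM and 437 to 528 CPM in non-tumour liver of the same arms. Among the 6 endothelial markers 2 were called higher in each arm, Pecam1 (0.53 and 0.87) and Cdh5 (0.53 and 0.71), with sums of 149 to 267 CPM and 189.97 to 271 CPM against 125 to 203 CPM and 151 to 191 CPM. Among the 7 stellate cell and fibroblast markers Acta2 was called higher in both arms (1.54 and 2.17) and Rgs5 lower without exercise (-0.75). No other gene of that list was called in either arm. Their sums were 232 to 557 CPM and 174 to 405 CPM, against 199.5 to 405 CPM and 127 to 356 CPM. The share of counts from mitochondrial genes was 2.56% to 4.50% in tumours and 4.54% to 5.99% in non-tumour pieces. The part of these markers in the tumour differences was not tested.

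Exercise was compared in non-tumour and in tumour pieces separately. No gene of the 7 passed in either. In non-tumour liver the inhibitor G0s2 and Pnpla3 had the 2 smallest p-values among them. Pnpla3 differed by -1.64 ± 0.36 on the log2 scale (SE, adjusted p = 0.141 by edgeR, unadjusted p = 0.000239), with no overlap between the groups, and it ranked 23 of 14428 genes by p. The Wald test of DESeq2 called it (-1.63, adjusted p = 0.00461), and edgeR called it without exercised library 2 (-2.23, adjusted p = 0.0243). Over all alternatives its adjusted p ran from 0.00461 to 0.523. Exercised library 2 also had the highest tumour marker sum of the 12 non-tumour pieces, 24.1 CPM against 5.85 to 8.32 in the other 3 of its group, whose part in its Pnpla3 level was not tested. G0s2 differed by -1.11 ± 0.51 (adjusted p = 0.584), and by -1.79 without exercised library 3.

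The other 5 genes did not pass for exercise in non-tumour liver. Pnpla2 differed by 0.38 ± 0.19 (adjusted p = 0.630), with a 95% interval from -0.03 to 0.79. Mgll (-0.07, interval -0.72 to 0.58), Lipc (-0.06, interval -0.83 to 0.71), Abhd5 (-0.07, interval -0.44 to 0.29) and Lipe (-0.01, interval -0.26 to 0.24) had intervals on both sides of 0. The intervals of Pnpla2, Mgll and Lipc include changes of over 1.5-fold. The count of 0 of 7 called by edgeR stands against 0.0139% of all genes tested. At an unadjusted p under 0.05 there were 2 of 7, and DESeq2 called 1. Non-overlapping groups were found for 1 of 7, Pnpla3, against 4.81% of all genes (2.54% higher, 2.27% lower). The median was -0.07 over the 7 genes and -0.01 over all.

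In tumours, Pnpla2 differed by 0.49 ± 0.19 with exercise (adjusted p = 0.483, unadjusted p = 0.0211, interval 0.08 to 0.90) and Abhd5 by -0.36 ± 0.17 (adjusted p = 0.565, unadjusted p = 0.0449, interval -0.73 to -0.00). Pnpla3 differed by -0.41 ± 0.28 (adjusted p = 0.718, interval -1.01 to 0.20) and Lipe by 0.20 ± 0.12 (adjusted p = 0.663). Mgll (0.35, interval -0.30 to 1.0), Lipc (0.27, interval -0.51 to 1.04) and G0s2 (0.07, interval -1.01 to 1.15) had wide intervals. The count of 0 of 7 by edgeR stands against 0.0208% of all genes, with 2 of 7 at an unadjusted p under 0.05 and 0 called by DESeq2. Groups overlapped for 7 of 7, where 3.76% of all genes did not (2.27% higher, 1.48% lower). The median was 0.20 over the 7 genes and 0.01 over all.

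Whether the tumour difference depended on exercise was tested as an interaction, and no gene of the 7 or of all 14428 passed (0% called, also 0 by DESeq2). At an unadjusted p under 0.05 there was 1 of 7, Pnpla3. Its tumour difference was larger with exercise by 1.23 ± 0.46 on the log2 scale (unadjusted p = 0.0148, rank 52 of 14428 genes). The next largest was G0s2 at 1.18 ± 0.72 (unadjusted p = 0.118). These comparisons share libraries: non-tumour liver of non-exercised mice on the high-fat diet enters the diet, exercise and tumour comparisons, so a value that is high there, as for G0s2, enters all of them.

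Because G0s2 and Abhd5 bind the same lipase, the ratio of each transcript to Pnpla2 was taken within each library, per length, as a description with no test. The ratio of G0s2 to Pnpla2 had a median of 0.843 with a range of 0.578 to 1.76 for the normal diet and 7.81 in non-exercised non-tumour liver on the high-fat diet (3.63 to 13), without overlap. It was 2.04 in exercised non-tumour liver (1.08 to 8.70), where 3 of 4 libraries lay below every non-exercised library and library 3 among them. Tumours had medians of 3.61 (2.39 to 4.94) without exercise and 2.15 (1.54 to 5.98) with it.

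The ratio of Abhd5 to Pnpla2 behaved otherwise. Mice on the normal diet had a median of 0.340, from 0.238 to 0.382. On the high-fat diet it was 0.367 in non-exercised (0.309 to 0.380) and 0.265 in exercised non-tumour liver (0.217 to 0.329), which overlapped. In tumours it was 1.25 without exercise (0.780 to 1.64) and 0.693 with it (0.525 to 0.739), and both tumour groups lay above all 12 non-tumour libraries. The 2 tumour groups did not overlap, but only narrowly, with 0.780 next to 0.739. Neither Abhd5 (adjusted p = 0.565 by edgeR) nor Pnpla2 (adjusted p = 0.483 by edgeR) was called for exercise in tumours. The share of other gene pairs whose ratios do not overlap was not counted for any ratio here. Pnpla3 stood at a median of 0.00323 of Pnpla2 on the normal diet, 0.0937 and 0.0191 in non-tumour liver without and with exercise, and 1.03 and 0.513 in the respective tumours. In tumours of non-exercised mice that ratio ran from 0.420 in library 3 to 1.27 in library 2.

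**Figure D4:**
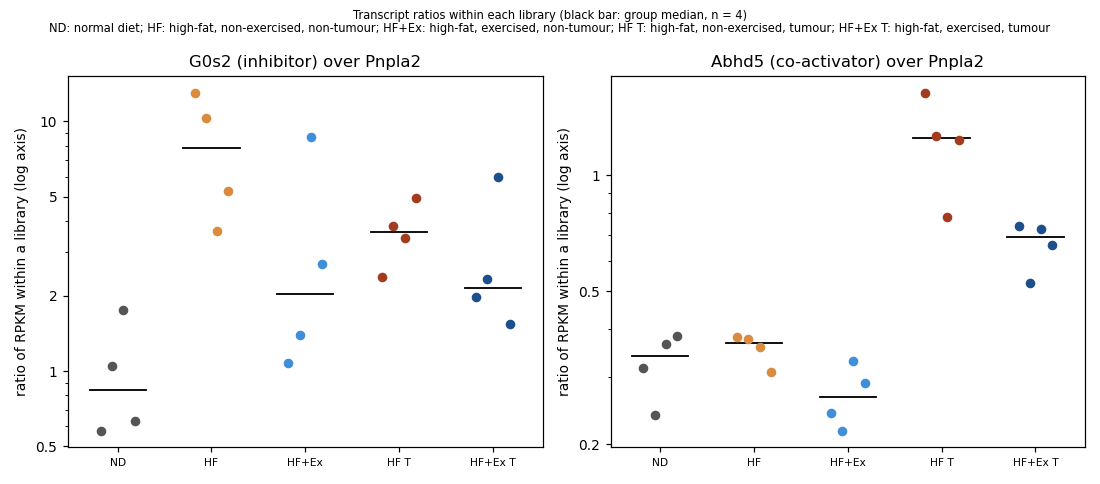
Ratio of G0s2 (left) and of Abhd5 (right) to Pnpla2 in RPKM within each library, on log axes; points are libraries and black bars group medians (n = 4). The inhibitor ratio is highest in non-exercised non-tumour liver on the high-fat diet (3.63 to 13), and the activator ratio in the tumours (0.525 to 1.64).

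Mgll and Lipc ran together across libraries, and opposite to Abhd5. As descriptions over 20 libraries that share group structure, log2 CPM of Mgll correlated with Lipc at r = 0.81 and with Abhd5 at r = -0.92, and after the group means were removed at 0.73 and -0.69. Pnpla3 and Lipc stood at r = -0.88, and at -0.50 within groups. Pnpla2 had its largest coefficient with Pnpla3, -0.68 overall but 0.14 within groups. G0s2 stood apart from the others, its largest being 0.42 with Mgll (0.47 within groups).

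Genes most like each member in Pearson r of log2 CPM over the 20 libraries were taken from its 3 highest coefficients, with no test. For Mgll they included Ech1 (0.98), which takes part in fatty acid oxidation, and Abcb4 (0.97), a phospholipid exporter of bile. Within groups the r with Ech1 was 0.94. For Lipc they were Glo1, Scnn1a and Nxt2 (each 0.98), and for Abhd5 Avpi1 (0.95), Zdhhc20 (0.95) and Itpr3 (0.94). For Pnpla3 they were Arhgap22 and Plscr1 (both 0.98) and Tnfrsf10b (0.97), for Pnpla2 Fbxo31 (0.92), Por (0.88) and Arhgef26 (0.88). Those of G0s2 reached at most 0.86 (Rassf7), then Inhbe (0.85) and Frs3 (0.82), and those of Lipe 0.85 (Gabarapl2, Odf3b and Gpld1). Within groups not all of these held as for Ech1. Plscr1 with Pnpla3 was at 0.58, Zdhhc20 with Abhd5 at 0.72 and the genes of Lipe at 0.54 to 0.60. Those of Lipc stayed at 0.93 to 0.95 and Avpi1 with Abhd5 at 0.97.

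Other genes of the pathway were counted from 4 lists, whose counts stand against the shares over all genes tested: for the diet 14% higher and 11.9% lower, for tumours 18% and 17.8% without exercise and 18.6% and 16% with it. No list was tested against these shares. The list counts at an unadjusted p under 0.05 have no share over all genes beside them and are not read as results. For exercise DESeq2 called 107 of all genes in non-tumour liver and 79 in tumours. Of 28 other lipid and ester hydrolases, 25 were tested, since Pnpla1, Liph and Pnlip were too low. The diet called 2 higher and 3 lower, tumours 5 and 12 without exercise and 3 and 11 with it, and exercise none in either tissue (by DESeq2 none, with 2 and 0 at an unadjusted p under 0.05). In tumours of both arms Lpl, the lipoprotein lipase, rose (1.76 ± 0.28 and 2.33 ± 0.28 on the log2 scale), as did Pnpla5, a relative of Pnpla3 (4.73 ± 0.78 and 5.54 ± 0.84), and Pnpla8, a calcium-independent phospholipase, fell (-0.57 ± 0.09 and -0.53 ± 0.09). Lipg, the endothelial lipase, rose on the high-fat diet (1.28 ± 0.39). Carboxylesterases also passed, with Ces2a (-2.44 ± 0.27), Ces2c (-1.46 ± 0.38) and Ces3b (-2.45 ± 0.61) lower on the high-fat diet and Ces2e higher in tumours (1.75 ± 0.27 and 1.76 ± 0.27). These come from families of near-identical copies, and their counts are uncertain.

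Of 31 other regulators of lipase action 30 were tested, without Plin1. Against 25.9%, 35.8% and 34.6% of all genes called in either direction, the diet called 6 higher and 5 lower, tumours 6 and 8 without exercise and 10 and 6 with it, and exercise none (by DESeq2 none, with 4 in non-tumour liver and 7 in tumours at an unadjusted p under 0.05). The droplet proteins Cidea (6.64 ± 0.93), Cidec (3.09 ± 0.30) and Plin3 (0.94 ± 0.17) and the fatty acid carrier Fabp4 (1.58 ± 0.28) rose on the high-fat diet. In tumours without exercise Plin5, a droplet protein that binds Pnpla2 and Abhd5, fell (-1.69 ± 0.35), as did Cidec (-1.09 ± 0.27) and Cideb (-0.38 ± 0.10), and Prkar1a, a regulatory subunit of protein kinase A, rose (0.31 ± 0.09). In tumours with exercise Hilpda, which like G0s2 inhibits Pnpla2 (1.59 ± 0.34), and Plin3 (0.71 ± 0.16) rose, and the kinase subunit Prkacb fell (-0.31 ± 0.07).

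All 11 transcription factors listed for lipase genes were tested, with the same shares as background. The diet called 1 higher and 7 lower, among the latter Hnf4a (-0.65 ± 0.11), Foxo3 (-0.95 ± 0.22), Mlxipl (-0.69 ± 0.17) and Egr1 (-3.30 ± 0.83). Tumours had 1 higher and 3 lower without exercise and 0 and 4 with it, with Klf15 (-0.97 ± 0.23 and -0.79 ± 0.22) and Nr1h3 (-0.34 ± 0.09 and -0.46 ± 0.09) lower in both arms. Exercise called none by edgeR, with 5 in non-tumour liver and 3 in tumours at an unadjusted p under 0.05 and 3 and 1 called higher by DESeq2. All 15 triglyceride synthesis genes were tested. Calls in either direction were 3, 8 and 5 of 15 for the diet and the 2 tumour comparisons, against 25.9%, 35.8% and 34.6% of all genes. The diet called 2 higher, Gpam (1.44 ± 0.25) and Mogat1 (2.95 ± 0.63), and 1 lower, Gpat4 (-0.68 ± 0.16). Tumours had 3 higher and 5 lower without exercise and 2 and 3 with it, with Gpd1 (-1.03 ± 0.15 and -0.66 ± 0.15), Gpat4 (-0.97 ± 0.16 and -1.14 ± 0.16) and Agpat2 (-0.72 ± 0.14 and -0.66 ± 0.14) lower and Lpin3 (1.49 ± 0.31 and 1.33 ± 0.31) higher in both. Exercise called none of these by edgeR, with 4 and 3 at an unadjusted p under 0.05 and 1 and 0 by DESeq2.

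The genes that DESeq2 alone called for exercise, named after their values were seen, were Foxo1 (0.93, adjusted p = 0.0110), Foxo3 (0.93, adjusted p = 0.0129), Klf15 (0.88, adjusted p = 0.0275) and the phosphatidate phosphatase Lpin1 (2.42, adjusted p = 0.00352) in non-tumour liver, and Klf15 (1.04, adjusted p = 0.00512) in tumours. In edgeR Lpin1 differed by 2.40 ± 0.53 (adjusted p = 0.143), Foxo1 by 0.91 ± 0.21 (0.174), Foxo3 by 0.91 ± 0.22 (0.174) and Klf15 by 0.87 ± 0.22 (0.211) in non-tumour liver, and Klf15 by 1.05 ± 0.23 (0.111) in tumours. The 2 most abundant genes of each list, also not called by edgeR, had these log2 values in non-tumour liver and in tumours. Among hydrolases, Ces1c differed by 0.21 ± 0.18 and -0.06 ± 0.18, and Ces3a by 0.13 ± 0.69 and 0.44 ± 0.69, both from families of near-identical copies. Plin2, the main droplet coat protein of hepatocytes, differed by -0.36 ± 0.27 and -0.10 ± 0.27, and Apoc3, a lipoprotein component that restrains lipoprotein lipase, by 0.18 ± 0.16 and 0.41 ± 0.16. Hnf4a, a hepatocyte transcription factor, differed by 0.31 ± 0.11 and 0.21 ± 0.11, and Srebf1, which drives lipid synthesis genes, by -0.03 ± 0.34 and -0.0018 ± 0.34. Gpam, which starts glycerolipid synthesis, differed by -0.49 ± 0.25 and -0.47 ± 0.25, and Gpd1, which supplies glycerol 3-phosphate, by -0.09 ± 0.15 and 0.28 ± 0.15.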

How the data were processed

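Liver RNA of 20 samples in 5 groups of 4 was analysed. A stranded mRNA kit was used, per the labels' protocols. Deposited were unnormalised counts of reads for each gene from featureCounts 2.0.5 (strand setting 2), taken over exons of the GENCODE M27 annotation, per the file headers; Trim Galore 0.6.10, STAR 2.7.11a and GRCm39 are named in the submitters' processing notes. The headers name no option for multi-mapping reads, so reads of near-identical copies may be missing from the counts.

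The rest was computed from these counts. The gene name table gave symbols to 52083 of 55359 identifiers, and 135 that share one were named by identifier. Genes kept by filterByExpr (minimum count 10, minimum total 15) numbered 14428. Group means over all 20 libraries were fitted with the quasi-likelihood F test of edgeR 4.0.16 (robust, TMM scaling, 15 residual degrees of freedom, R 4.3.3, limma 3.58.1). A call, or a pass, means an adjusted p (Benjamini-Hochberg) under 0.05 over all genes, two-sided. The SE is the size of the log2 fold change over the root of F, and log2 CPM used for correlations carries a prior count of 2. Total counts were 16471378 to 20271948 per library. On counts simulated from these libraries, the diet comparison (14243 genes) recovered 34.3%, 70.1% and 93.9% of genes changed 1.5-, 2- and 4-fold, and exercise in non-tumour liver (14242 genes) 25.4%, 76.1% and 92.4%.

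The labels give no batch. The lowest chi-square per gene between 2 libraries of a group was 9.06, above sampling noise, so no library was counted as a repeat. The titles number the mice, and the 2 pieces with one number in an arm were read as 1 mouse, which the labels do not state. The pairing was checked by the correlation of deviations from the group means, which was -0.0835 to 0.213 for the same number without exercise (1 of 4 correlated best with its own number) and 0.0754 to 0.441 with exercise (3 of 4). Alternatives were RLE and upper-quartile scaling, DESeq2 1.42.0, no filter, at least 1 CPM in 4 libraries, fitting just the compared groups, a replicate block, and leaving out each library. Genes and lists were chosen with earlier results of these data known. All 7 genes are named in each comparison, and of each list up to 4 called genes with the smallest p. Where exercise called none of a list, the 2 of highest mean CPM are named. Protein sequences were not used here. Some genes that these rules name are left unreported.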

Additional observations from a re-analysis of the deposited data

Results flagged for a closer look

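Each gene was looked at in each of the 5 groups for a library that stood apart from its 3 companions, by the gap to its nearest neighbour as a share of the group's range. Of 35 such groups, 1 exceeded Dixon's limit, where chance gives about 1 in 20. Abhd5, the activator of Pnpla2, stood at 115 CPM in tumour library 1 of the exercised mice, against 62.2 to 64.2 CPM in the other 3 (gap over range 0.963). The same library had the highest sum of tumour markers of all 20, 1598 CPM, whose part in the Abhd5 level was not tested. Without it the tumour difference of Abhd5 in exercised mice was 0.74 on the log2 scale and still passed the edgeR test.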

How the results depend on the processing

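The tumour calls of Pnpla3, Abhd5 and Mgll held under 15 of 15 alternatives in each arm, those of Lipc under 15 without and 14 with exercise, and the diet calls of Pnpla3 and G0s2 under 15 of 15. With only the groups compared, the diet called 5 of the 7 genes in place of 2. For exercise in non-tumour liver, the 2 calls over all genes became 107 with DESeq2, 1 with no filter or the replicate block, and 0 with only the groups compared. Leaving out a library gave 0 to 72, the most without exercised library 3. Of the 7 genes DESeq2 called 1 there in place of 0, and leaving out a library gave 0 to 1. For exercise in tumours, the 3 calls became 79 with DESeq2, 1 with RLE or upper-quartile scaling, the 1 CPM filter or the replicate block, 0 with only the groups compared, and 0 to 41 without a library, the most without exercised library 3. Leaving out a library gave 2713 to 3616 calls for the diet, and for tumours 3753 to 5938 without exercise (4 to 7 of the 7 genes) and 3731 to 5536 with it (4 to 5).

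Values that changed sign were all uncalled. With exercise in non-tumour liver, Lipe (-0.01) was 0.0057 with RLE scaling, 0.00497 with DESeq2, 0.018 with no filter, 0.0058 with only the groups compared, and -0.0348 to 0.0362 without a library. Leaving out a library there gave -0.13 to 0.0364 for Mgll and -0.17 to 0.0838 for Lipc. G0s2 with exercise in tumours was -0.0468 under the replicate block and -0.31 to 0.28 without a library. In the tumour comparison with exercise, leaving out a library gave -0.78 to 0.27 for G0s2 and -0.20 to 0.0014 for Lipe, and in the interaction -0.0770 to 0.24 for Pnpla2. Without exercised non-tumour library 3 the interaction of G0s2 was 1.85. The causes were not tested. On unscaled totals the mean level in non-exercised non-tumour liver was 62.8 CPM for Pnpla2, 13.6 CPM for Lipe and 43.8 CPM for Abhd5.

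Across groups other than the pieces of 1 mouse only a number was shared. Same-number correlations of deviations were -0.392 to 0.0304 for exercise in non-tumour liver, 0.0281 to 0.573 in tumours and -0.0300 to 0.0547 for the diet, and a block on the number moved calls as given above. The mouse block changed no call of the 7 genes beyond those of Pnpla2 and Lipc given beside them. Depth limits Pnpla3 most, with 1 to 5 counts per library on the normal diet.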
